A study of Homo sapiens with 12 samples.

Results

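The genes described here are 7 targets of the transcription factor pair YAP-TEAD: CCN1, CCN2, ANKRD1, AMOTL1, AMOTL2, AJUBA and LATS2. They were taken by symbol from the 19901 genes of the count table, and all 7 were found. The rule that picks them uses no measured value, but the list was drawn up with earlier results of these data known. The filter on low counts was passed by 6 of them, and ANKRD1, with at most 8 reads in any library, did not pass it.

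RNA-Seq was performed on HCT116 cells, a human colorectal carcinoma line, from 1 clone (KAP1_dTAG_CloneD5) in which both alleles of TRIM28, the KAP1 gene, carry a degron and HA tags at the C-terminus. All cells were starved of serum for 48 h and received DMSO, the solvent, or dTAG, the compound that directs the tagged KAP1 to degradation, for the last 8 h. Serum was then withheld (DMSO-S0 and dTAG-S0) or given for 30 min (DMSO-S30 and dTAG-S30), with 3 libraries in each of the 4 groups. The comparisons ask how KAP1 depletion alters transcript levels at rest and after serum, in a single clone and against DMSO in the same tagged cells.

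YAP and its relative TAZ (the product of WWTR1) are co-activators without DNA-binding domains that act mainly through the TEAD proteins, which recognise GGAATG and its close variants. The Hippo kinases LATS1 and LATS2 phosphorylate YAP and TAZ and keep them in the cytoplasm, and serum lipids such as lysophosphatidic acid relieve this through G protein-coupled receptors. Several targets encode brakes on the same pathway: LATS2 itself and the angiomotin-like proteins, which bind YAP. CCN1 and CCN2 are in addition known as immediate early genes that other serum-responsive factors induce.

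Promoter sequences from RefSeq (GRCh38.p14) were found for 6 of the members, all but CCN1, as 8 windows from 250 bases before to 50 bases after a start site. AMOTL2 and AJUBA had 2 start sites each. The TEAD letters GGAATG, read on both strands, occurred in 14.0% of 35116 promoter windows, and 0.128% of windows held at least 3 matches. The CCN2 window held 3 matches, whose first bases lie 169, 104 and 95 bases before the start. The 250 bases before the CCN2 start, chr6:131951373-131951622 (hg38, minus strand, TEAD letters in capitals), are shown because they hold all 3:

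CCN2: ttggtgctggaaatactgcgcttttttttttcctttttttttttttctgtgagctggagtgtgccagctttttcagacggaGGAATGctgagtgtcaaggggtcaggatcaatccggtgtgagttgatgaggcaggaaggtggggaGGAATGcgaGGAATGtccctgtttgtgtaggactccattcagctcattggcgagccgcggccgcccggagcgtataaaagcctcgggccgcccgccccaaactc

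The later pair of CCN2 matches is spaced by 9 bases from first base to first base. ANKRD1 held 2 matches, and single matches stood in the windows of LATS2, of the second AMOTL2 start and of the second AJUBA start. They are shown as 30 bases around each match, written along the gene's strand, so that the letters next to the motif can be compared:

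ANKRD1, chr10:90921290-90921319, minus strand: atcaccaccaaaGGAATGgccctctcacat

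ANKRD1, chr10:90921198-90921227, minus strand: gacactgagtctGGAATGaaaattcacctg

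AMOTL2, chr3:134374499-134374528, minus strand, where the match is on the other strand and reads CATTCC: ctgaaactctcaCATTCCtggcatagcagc

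AJUBA, chr14:22976884-22976913, minus strand: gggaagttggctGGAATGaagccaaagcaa

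LATS2, chr13:21061560-21061589, minus strand: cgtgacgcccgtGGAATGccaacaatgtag

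The LATS2 match begins at base 10 after its RefSeq start, whereas the others precede theirs. The counted genes begin elsewhere. By their positions the LATS2 match lies before the gene, which starts at chr13:21061547, and the later ANKRD1 match and those of AMOTL2 and AJUBA lie within their genes. No TEAD match was found in the windows of AMOTL1, the first AMOTL2 start or the first AJUBA start. The AMOTL1 window surrounds a RefSeq start at chr11:94768356, which lies inside the counted gene. That gene begins at 94706431, and the bases around this earlier position were not searched. AP-1 letters (TGANTCA, in 7.71% of all windows) were found once, in ANKRD1, 195 bases before the start. The letters of the cyclic AMP response element (TGACGTCA, 1.85% of all windows) and of the serum response factor site, the CArG box (1.29%), were found in none of the 8 windows. These are matches of letters, and binding of any factor was not measured in this series.

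**Figure D1:**
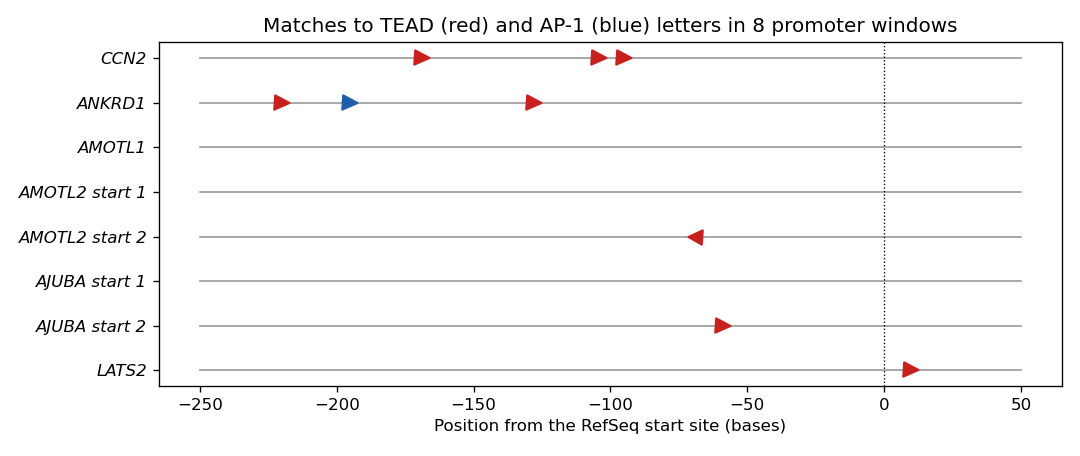
Matches to the TEAD letters (red) and AP-1 letters (blue) in 8 RefSeq promoter windows of 6 members, by distance in bases from the start site (dotted line), with the arrowhead giving the strand. CCN2 carries 3 TEAD matches between 169 and 95 bases before its start, ANKRD1 carries 2, and 3 windows carry none.

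Library totals ran from 20537682 to 26278707 counts, of which 7.97% to 9.37% were ERCC spike-ins. Levels are given as normalised CPM, read counts relative to the scaled library size. Calls were made at an adjusted p under 0.05 (edgeR quasi-likelihood F-test, Benjamini-Hochberg over 13093 genes). TRIM28 transcript stood at 96.9 CPM in DMSO-S0, 92.6 in dTAG-S0, 114.7 in DMSO-S30 and 112.0 in dTAG-S30, which checks nothing about the protein that dTAG removes. Of 8 colorectal epithelial markers 7 passed the filter, VIL1 being the exception. Their summed level was 1230 to 1292 CPM in DMSO-S0, 1418 to 1517 in DMSO-S30, 1250 to 1407 in dTAG-S0 and 1480 to 1688 in dTAG-S30. With dTAG 0 of the 7 were called, where 1.31% of all genes tested were without serum and 1.23% with serum. With serum 5 of the 7 were called higher in either treatment, beside 9.18% of all genes tested in DMSO and 9.09% in dTAG-treated cells. The part of this marker shift in the members' serum values was not tested. Of 8 fibroblast markers only COL1A1 passed the filter, and COL1A2, DCN, LUM, PDGFRA and THY1 had at most 3 counts in every library. The summed fibroblast level, carried by COL1A1, was 12.4 to 16.4 CPM without serum and 66.2 to 85.9 CPM with it. Summed endothelial and leukocyte markers stayed between 2.33 and 6.96 CPM.

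CCN1 (ENSG00000142871.16, chr1:85580761-85583962, plus strand, hg38) encodes CYR61, a secreted matricellular protein that binds integrins. Its 3 DMSO-S0 libraries had 9.96, 9.45 and 8.09 CPM, and its DMSO-S30 libraries 715, 665 and 719 CPM. After dTAG the levels were 8.70, 7.92 and 7.75 CPM without serum and 545, 588 and 607 CPM with serum. Every serum library stood far above every starved one, and with serum the 3 dTAG libraries were lower than each DMSO library. In bulk RNA, fewer cells that express a gene and less RNA per cell cannot be told apart, here and throughout. The rise was 77.8-fold in DMSO (95% CI 68.9 to 87.8, log2 6.28, SE 0.0852, adjusted p = 1.8e-27) and 70.6-fold in dTAG-treated cells (log2 6.14, SE 0.0829, adjusted p = 1.57e-27).

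CCN2 (ENSG00000118523.5, chr6:131948176-131951373, minus strand) encodes connective tissue growth factor, the matricellular relative of CCN1 whose promoter is shown above. Its levels were 1.86, 1.15 and 1.77 CPM in DMSO-S0 and 48.2, 42.3 and 46.4 CPM in DMSO-S30. After dTAG without serum it had 1.08, 0.736 and 0.999 CPM, and in dTAG-S30 26.6, 24.8 and 27.7 CPM. The dTAG libraries lay below the DMSO libraries at both serum states, without overlap. Serum raised CCN2 28.7-fold in DMSO (95% CI 23.7 to 34.8, adjusted p = 1.15e-20) and 28.1-fold in dTAG-treated cells (adjusted p = 1.15e-19), so that the proportional response was close while the level it reached differed.

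ANKRD1 (ENSG00000148677.6, chr10:90912096-90921276, minus strand) encodes an ankyrin repeat protein best known from stretched muscle, and is a common reporter of YAP activity. Its reads numbered 0, 1 and 0 in DMSO-S0, 3, 8 and 5 in DMSO-S30, 0, 0 and 0 in dTAG-S0 and 4, 3 and 2 in dTAG-S30. Reads were thus seen almost only with serum. Over the group, DMSO-S30 held 16 reads against 1 in DMSO-S0, a depth-adjusted ratio of 15.3 (exact 95% interval 2.38 to 642, counting error only). In dTAG-treated cells 9 reads stood against 0, and the exact 95% interval of the ratio began at 2.02 with no upper limit. Setting the 0 to 3 counts over the group would give 3.08-fold. With serum the ratio of dTAG to DMSO was 0.538 with an exact interval of 0.210 to 1.29, so a difference was not detectable at this depth. With no filter on low counts the edgeR test called ANKRD1 higher with serum in DMSO (log2 3.34, adjusted p = 0.045). In dTAG-treated cells it was not called, though the estimate was larger (log2 4.24, adjusted p = 0.0682). The difference between these responses was 0.903 on the log2 scale and was not called (edgeR, unadjusted p = 0.473).

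LATS2 (ENSG00000150457.8, chr13:20973032-21061547, minus strand) encodes the kinase that phosphorylates YAP. Its levels were 34.4, 37.2 and 38.4 CPM in DMSO-S0, and 105.1, 112.2 and 117.1 CPM in DMSO-S30. After dTAG they were 32.7, 34.5 and 32.9 CPM without serum and 96.03, 80.8 and 95.04 CPM with serum. Serum separated the libraries completely, and with serum the dTAG libraries all fell under the DMSO range. The rise was 3.02-fold in DMSO (log2 1.59, SE 0.0734, adjusted p = 8.86e-16) and 2.73-fold in dTAG-treated cells (log2 1.45, adjusted p = 5.34e-15).

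AMOTL2 (ENSG00000114019.14, chr3:134355874-134375479, minus strand) encodes an angiomotin family scaffold of cell junctions that binds YAP. It had 60.1, 61.0 and 56.8 CPM in DMSO-S0 and 109.8, 100.2 and 105.9 CPM in DMSO-S30. After dTAG without serum it had 44.5, 44.7 and 46.3 CPM, and in dTAG-S30 82.9, 86.0 and 89.6 CPM. The 4 groups of AMOTL2 did not overlap one another. Serum raised it 1.78-fold in DMSO (log2 0.83, adjusted p = 2.84e-11) and 1.90-fold in dTAG-treated cells (log2 0.93, adjusted p = 2.67e-12).

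AMOTL1 (ENSG00000166025.17, chr11:94706431-94876753, plus strand) encodes a second angiomotin-like protein, and its group means were 130.0 ± 4.46 CPM in DMSO-S0, 129.2 ± 1.55 in DMSO-S30, 128.2 ± 8.16 in dTAG-S0 and 135.3 ± 8.44 in dTAG-S30 (SD, n = 3). The groups overlapped throughout. The serum difference was 0.01 on the log2 scale in DMSO (95% CI -0.11 to 0.14) and 0.06 in dTAG-treated cells, with neither called (adjusted p = 0.923 and 0.465).

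AJUBA (ENSG00000129474.15, chr14:22971174-22982642, minus strand) encodes a LIM domain protein that binds LATS kinases, and was low at 19 to 48 counts per library. Its levels were 1.36 ± 0.451 CPM in DMSO-S0, 1.62 ± 0.395 in DMSO-S30, 1.16 ± 0.276 in dTAG-S0 and 1.83 ± 0.431 in dTAG-S30 (SD, n = 3), and the groups overlapped. By the deposited positions, 11085 of its 11470 bp, or 96.6%, are shared with another protein-coding gene of the same strand, ENSG00000259132.1. That gene had 58 to 111 counts per library. How reads on shared bases were counted is not given in the sources used here. They could be split between the genes or left out of both, so the AJUBA level may be too low and its values are uncertain. Serum in dTAG-treated cells gave a log2 difference of 0.73 (95% CI 0.16 to 1.30, adjusted p = 0.0536), which was not called. With 1 library left out it ranged from 0.27, without dTAG-S30 replicate 3, to 0.90, without dTAG-S30 replicate 2.

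Of the 6 members tested, 4 rose with serum in DMSO and the same 4 in dTAG-treated cells, beside 9.18% and 9.09% of all genes tested that were called higher. Their median log2 change was 1.21 in DMSO and 1.19 in dTAG-treated cells, against -0.07 and -0.06 over all genes tested. The 2 members that were not called were AMOTL1 and AJUBA. CCN1 and CCN2 ranked 6 and 16 among the 13093 genes by log2 rise in DMSO, LATS2 145 and AMOTL2 379. The members thus ranged from no detected response to a place among the steepest rises in the table.

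**Figure D2:**
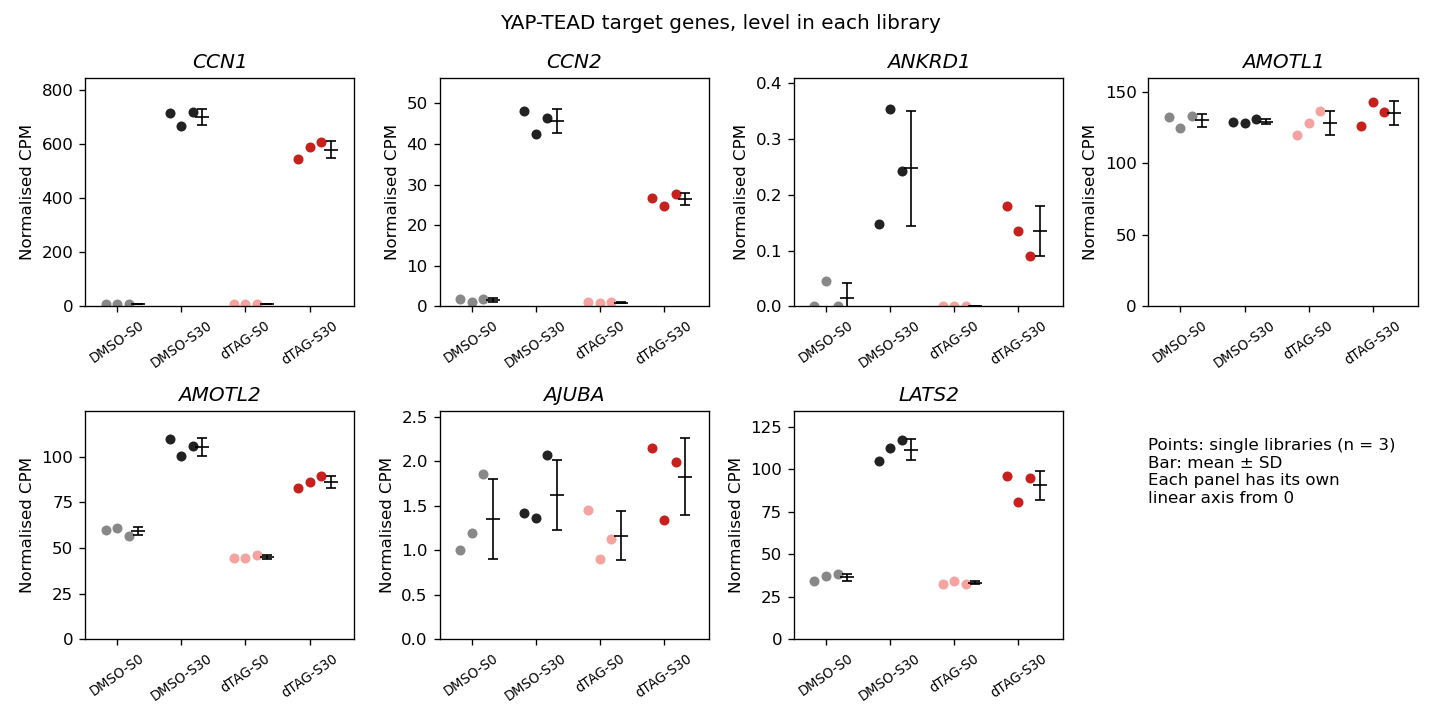
Normalised CPM of the 7 members in each of 12 libraries, with group mean ± SD (n = 3) and a separate linear axis from 0 in each panel. CCN1, CCN2, LATS2 and AMOTL2 rise with serum in DMSO (grey to black) and dTAG (pink to red), the dTAG-S30 points of these 4 lie below the DMSO-S30 points, and the AMOTL1 and AJUBA points overlap.

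The plot of levels by library also shows how differently the genes stand at rest. Per kb of counted gene span, introns included, AMOTL2 and CCN1 were highest in DMSO-S0 at 3.02 and 2.86 CPM per kb, and their libraries overlapped. AMOTL1 followed at 0.763, then CCN2 at 0.497 and LATS2 at 0.414, whose libraries overlapped, then AJUBA at 0.118 and ANKRD1 at 0.00167 CPM per kb. With serum the order in DMSO became CCN1 at 218.5, CCN2 at 14.3, AMOTL2 at 5.37, LATS2 at 1.26, AMOTL1 at 0.758, AJUBA at 0.141 and ANKRD1 at 0.0269 CPM per kb, and no neighbours in that order overlapped. The order in dTAG-S30 was the same, with CCN1 at 181.0 and CCN2 at 8.24 CPM per kb. Long genes collect intronic reads over their whole span, so levels per kb compare counted spans, not mature transcripts. The AJUBA value divides by its whole span, of which 385 bp lie outside the other gene, so its place in these orders is uncertain.

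The comparison of dTAG with DMSO asks whether these levels depend on KAP1. With serum, 4 of the 6 members tested were lower after dTAG, where 0.634% of all genes tested were called lower. These 4 were the members raised by serum, and values for other genes raised by serum are given further below. CCN2 fell most, by 0.78 on the log2 scale (SE 0.0947, 95% CI -0.98 to -0.59), from 45.6 ± 2.999 to 26.4 ± 1.46 CPM (adjusted p = 1.32e-05). CCN1 fell by 0.30 (SE 0.0640, adjusted p = 0.0126), from 699.8 ± 29.9 to 579.7 ± 31.7 CPM. AMOTL2 fell by 0.30 (SE 0.0605, adjusted p = 0.00821) and LATS2 by 0.29 (SE 0.0689, adjusted p = 0.0315).

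In each of these 4 members all 3 dTAG-S30 libraries lay below all 3 DMSO-S30 libraries, an arrangement found in 8.1% of all genes tested. AMOTL1 differed by 0.05 (95% CI -0.08 to 0.17, adjusted p = 0.848) and AJUBA by 0.29 (95% CI -0.26 to 0.84, adjusted p = 0.782). The change was -18.7% for CCN1, -18.5% for AMOTL2 and -18% for LATS2, against -41.8% for CCN2, and the calls of the former 3 depended on the setting. With library sizes taken from the spike-ins and no spike-in factor in the model none of the 3 was called, at log2 -0.27, -0.29 and -0.29 (adjusted p = 0.104, 0.108 and 0.331), whereas CCN2 was. With upper quartile scaling and no factor all 4 were called. Without DMSO-S30 replicate 3 the 3 calls were also lost (adjusted p = 0.107 for CCN1, 0.0543 for AMOTL2 and 0.233 for LATS2). CCN1 was not called without dTAG-S30 replicate 1 (adjusted p = 0.0753), nor LATS2 without DMSO-S30 replicate 2 (0.183) or dTAG-S30 replicate 2 (0.165).

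Without serum, AMOTL2 was the only member called lower after dTAG, where 0.451% of all genes tested were. It fell by 0.39 on the log2 scale (SE 0.0624, adjusted p = 0.000655), from 59.3 ± 2.23 to 45.2 ± 0.972 CPM, with no overlap. CCN2 differed by -0.75 (SE 0.241, 95% CI -1.25 to -0.26) and its dTAG libraries were all lower, but at 1.59 ± 0.386 against 0.939 ± 0.180 CPM it did not pass the test (adjusted p = 0.158). Complete separation downwards was found in 9.23% of all genes tested in this comparison. CCN1 differed by -0.16 (95% CI -0.37 to 0.05), LATS2 by -0.14 (-0.30 to 0.01), AJUBA by -0.28 and AMOTL1 by -0.01, none of them called (adjusted p = 0.581, 0.468, 0.771 and 0.981).

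The size of the serum response itself was compared between the treatments by the interaction, in which 0.0382% of all genes tested and 0 of the 6 members were called (edgeR). No member had an unadjusted p under 0.05 either, and DESeq2 also called 0. The difference between the serum responses was -0.03 on the log2 scale for CCN2 (95% CI -0.65 to 0.59), -0.14 for CCN1 (-0.39 to 0.11), -0.14 for LATS2 (-0.36 to 0.07) and 0.09 for AMOTL2 (-0.09 to 0.28). It was 0.05 for AMOTL1 (-0.12 to 0.23) and 0.57 for AJUBA (-0.26 to 1.40). These intervals leave room for unequal responses, and were widest in AJUBA and CCN2, the members with the lowest counts among those tested.

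**Figure D3:**
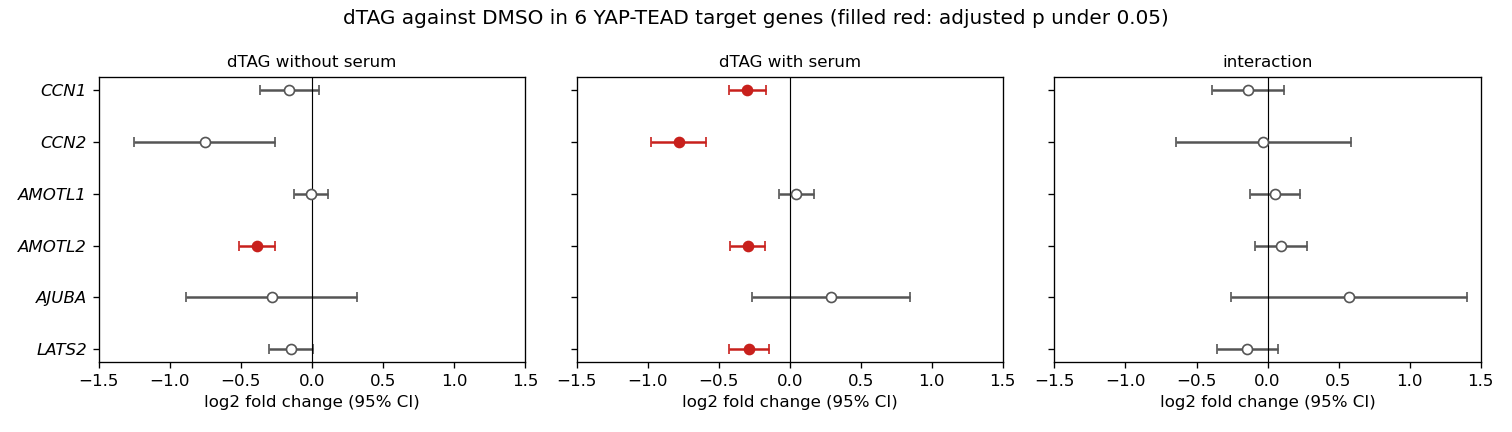
Log2 fold change with 95% CI of 6 members for dTAG relative to DMSO in starved cells, in serum-treated cells, and the interaction between them, with filled red points at an adjusted p under 0.05. CCN2 lies near -0.75 without serum and at -0.78 with it, the called points are AMOTL2 in the former and 4 members in the latter, and every interaction interval spans 0.

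The amount of transcript gained with serum is given here on the linear CPM scale, with no test of its own. CCN2 gained 44.04 ± 1.75 CPM in DMSO and 25.4 ± 0.847 CPM in dTAG-treated cells (SE), or 57.7% as much. CCN1 gained 690.6 ± 17.3 and 571.6 ± 18.3 CPM, or 82.8%. LATS2 gained 74.9 ± 3.67 and 57.3 ± 4.96 CPM, or 76.5%. For AMOTL2 the gains, 46.0 ± 3.07 and 41.0 ± 2.01 CPM, or 89.0%, came just within their summed errors of each other. AMOTL1 (-0.84 ± 2.73 and 7.02 ± 6.78 CPM) and AJUBA (0.267 ± 0.346 and 0.667 ± 0.296 CPM) had the higher value after dTAG, also within their summed errors. The share of the CPM gain kept was thus lower for CCN2 than for CCN1, its relative in the CCN family. This was not a smaller fold response of CCN2, whose interaction was -0.03 on the log2 scale against -0.14 for CCN1, with neither called.

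The ratio of CCN2 to CCN1 counts within each library, which no scaling of the library can alter, was examined after these values were seen. It was 18.6%, 12.1% and 21.8% in DMSO-S0 and 12.4%, 9.29% and 12.9% in dTAG-S0, which overlapped. With serum it was 6.75%, 6.36% and 6.45% in DMSO and 4.89%, 4.22% and 4.56% in dTAG-treated cells, which did not. Averaged over both serum states the log2 ratio differed by -0.55 (dTAG minus DMSO), with an exact two-sided permutation p of 0.015 over assignments within serum state, whose smallest possible value was 0.005. Because the ratio was chosen on these libraries, the p describes them and is no independent support.

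Serum raised 288 genes at least 2-fold in DMSO, among them CCN1, CCN2 and LATS2. Their median log2 difference between dTAG and DMSO was 0.09 without serum and -0.13 with serum. Of the 288, 91 lay below 0 without serum and 212 with serum, where the lower quartile was -0.27. A lower level after dTAG with serum was thus not particular to the members. In the former, 3 of the 288 lay lower than CCN2, 33 lower than CCN1 and 38 lower than LATS2, and in the latter 4, 61 and 64. In the interaction the positions were reversed: the median of the 288 was -0.21, and 237 lay lower than CCN2, 188 lower than CCN1 and 182 lower than LATS2. This set was selected on the DMSO libraries that also serve as the controls here, and the rise in DMSO enters the interaction with a minus sign, so these positions are descriptions.

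The genes most like each member were sought as those with the smallest root mean square difference in centred log2 CPM over the 12 libraries. For CCN1 these were the immediate early genes FOS (0.117) and FOSB (0.123), which encode AP-1 subunits. For CCN2 they were THBS1, a matricellular glycoprotein gene (0.311), and GPR183 (0.374), at larger distances than for any other member. LATS2 was nearest to VMP1 (0.101) and MEF2D (0.104), and AMOTL2 to RGS2 (0.114) and FUCA1 (0.121). AMOTL1 was nearest to SGPL1 (0.0308) and DDX56 (0.0329), and AJUBA to ODF3B (0.160) and FSCN2 (0.194).

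The transcripts of YAP, TAZ and the TEADs were then examined, though whether these factors act on the members' promoters in these cells was not measured. Of 10 such genes 7 were tested, and VGLL1, VGLL2 and VGLL3, cofactors that compete for TEAD, were too low. None was called in either dTAG comparison, where 1.31% of all genes tested were called without serum and 1.23% with serum. These 7 genes are too few to set against those shares. YAP1 stood at log2 0.00 without serum and 0.03 with serum, WWTR1 at 0.02 and 0.09, TEAD1 at -0.03 and 0.07, TEAD2 at -0.13 and -0.01, TEAD3 at -0.12 and -0.06, TEAD4 at -0.10 and -0.08 and VGLL4 at 0.08 and 0.05. With serum WWTR1 rose by 0.47 in DMSO and 0.54 in dTAG-treated cells. YAP1 fell by 0.18 in DMSO (adjusted p = 0.0227) and stood at -0.15 in dTAG-treated cells (adjusted p = 0.0553). TEAD1 rose by 0.21 in dTAG-treated cells (adjusted p = 0.0101) and stood at 0.12 in DMSO (adjusted p = 0.151). VGLL4 fell by 0.18 in dTAG-treated cells (adjusted p = 0.0244) and stood at -0.15 in DMSO (adjusted p = 0.0540). None of these was called in the interaction. Transcript levels say nothing of where YAP and TAZ proteins were in the cell.

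Of 10 paralogs of the members 7 were tested, namely AMOT, LATS1, LIMD1, WTIP, CCN3, ANKRD2 and ANKRD23, and CCN4, CCN5 and CCN6 were too low. LATS1 was the 1 paralog called, falling by 0.21 with serum in DMSO (adjusted p = 0.0154) and by 0.19 in dTAG-treated cells (adjusted p = 0.0276), while LATS2 rose in both. Over all genes tested, 26.3% and 24.5% were called in either direction in these comparisons, and 7 paralogs are too few to set against that share. None was called with dTAG, where the shares were 1.31% without serum and 1.23% with serum.

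Of 20 core Hippo genes besides LATS2, all tested, serum in DMSO raised WWC1, which encodes the KIBRA scaffold, by 0.86, and lowered 4, with WWC3 at -0.30, MOB1B at -0.24 and LATS1 at -0.21. These 5 of 20 compare with 26.3% of all genes. In dTAG-treated cells 1 was higher and 3 were lower, where 24.5% of all genes were called. With dTAG against DMSO 0 were called, where the shares over all genes were 1.31% without serum and 1.23% with serum. A list of 20 genes is too short to set against those shares. Of 24 polarity and STRIPAK genes tested, regulators upstream of the kinases, 1 was higher and 2 were lower with serum in DMSO. In dTAG-treated cells 3 were higher. These counts stand beside 26.3% and 24.5% of all genes called. Again 0 were called with dTAG, and 24 genes are likewise too few to set against the shares there. The median change with dTAG without and with serum was 0.01 and 0.03 in the core list and -0.01 in both for polarity and STRIPAK genes.

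A wider signature of 22 YAP-TEAD targets holds 17 genes that are no members, of which 14 were tested and IGFBP3, FOXF2 and RBMS3 were too low. With serum in DMSO 8 rose and none fell, where 9.18% of all genes tested were called higher. The rises were led by NUAK2, an AMPK-related kinase gene (log2 3.50), GADD45A, a stress response gene (1.69), and NT5E, which encodes the ecto-nucleotidase CD73 (1.19). In dTAG-treated cells 7 rose, all but FJX1 of those 8, where 9.09% of all genes tested were called higher. The median over the 14 was 0.28 in DMSO and 0.26 in dTAG-treated cells, and none was called lower in either. Over the alternatives tried 6 to 9 were called higher in each treatment, and up to 2 lower in DMSO, the 2 without dTAG-S30 replicate 3.

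After dTAG the other signature genes divided. With serum, 3 of 14 fell and 1 rose, where 0.634% of all genes tested were called lower and 1.23% in either direction. FJX1, a homologue of a Drosophila Golgi kinase gene that acts in FAT signalling, fell by 0.91 (adjusted p = 4.23e-06), from 22.8 to 12.3 CPM, AXL, a receptor tyrosine kinase gene, by 0.37 (adjusted p = 0.000604), from 112.5 to 87.1 CPM, and CRIM1 by 0.25 (adjusted p = 0.0388). F3, which encodes tissue factor, rose by 0.36 (adjusted p = 0.0126), from 47.8 to 62.1 CPM. Over the alternatives tried, 2 to 4 of the 14 were called lower with serum and 0 to 1 higher, with 0 higher under spike-in library sizes with no factor and without DMSO-S30 replicate 2 or 3 or dTAG-S30 replicate 1. Without serum 0.451% of all genes tested were called lower and 1.31% in either direction. In that comparison FJX1 fell by 0.83 (adjusted p = 1.85e-05) and AXL by 0.34 (adjusted p = 0.00219), while NT5E rose by 0.41 (adjusted p = 0.00527). Here 1 to 3 were called lower over the alternatives, 1 under spike-in library sizes with no factor, and 0 were called higher without dTAG-S0 replicate 3. The median over the 14 was -0.10 without serum and -0.14 with it, against -0.22 and -0.29 over the 6 members tested and -0.01 and 0.00 over all genes, and 0 of the 14 were called in the interaction.

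**Figure D4:**
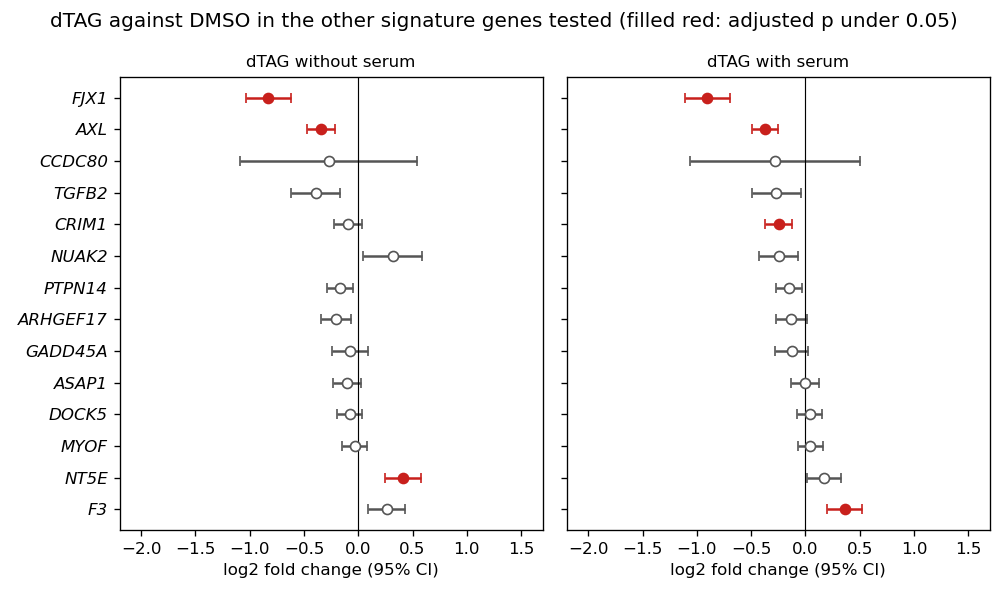
Log2 fold change with 95% CI of the 14 other YAP-TEAD signature genes tested, for dTAG relative to DMSO in starved and in serum-treated cells, ordered by the latter, with filled red points at an adjusted p under 0.05. FJX1 and AXL lie left of 0 in both panels, CRIM1 with serum, and NT5E without serum and F3 with serum lie to the right.

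Among the genes near the members on the genome, CCN2 lies within the lncRNA gene LINC01013 of the opposite strand, and LATS2 and AMOTL1 overlap the antisense genes LATS2-AS1 and PIWIL4-AS1 (GENCODE v44). The strand setting of the counting is not given in the sources used here, so reads of these partners could not be told from those of the members. The COL1A1 level that moves with serum moved by 2.48 on the log2 scale in DMSO and by -0.17 with dTAG in serum, the latter not called (adjusted p = 0.435), and its part in the members' values was not tested.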

How the data were processed

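The deposited values were raw read counts per protein-coding gene and ERCC transcript, made by the authors with Trim Galore 0.6.4, STAR on hg38 and featureCounts (Subread 1.6.3) over whole genes, introns included, for 12 libraries of total, rRNA-depleted RNA. No normalization had been applied. Its start positions count from 0 and are given from 1. Libraries were grouped by their labels, and 0 per-sample columns were left unused. The study calls the 3 libraries of a group biological replicates.

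Testing took the 13093 genes that reached 10 counts in 6 or more libraries and left out 6808. Counts were scaled by the upper quartile, 1 factor of unwanted variation was estimated from 69 ERCC transcripts, and the 4 groups were fitted together in edgeR 4.0.16 (R 4.3.3, quasi-likelihood F-test, two-sided, Benjamini-Hochberg adjustment). How many factors the study fitted is not given in the sources used here. Intervals on ANKRD1 counts are exact conditional 95% intervals. Alternatives were other scalings, 2 factors, no filter, a likelihood ratio test, DESeq2 1.42.0, a replicate block and each library left out. The fit was also run on simulated counts with changes placed in DMSO-S30 only. Just the comparison of serum in DMSO was read there, so the run does not bear on the dTAG or interaction calls.

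The members and lists were chosen with earlier results of these data known. Named genes were the members, every paralog and effector, the 3 largest called changes of each other list and comparison, and the 2 nearest patterns of each member. CRIM1, COL1A1, TRIM28 and the marker genes named outside this rule were chosen after values were seen.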

Additional observations from a re-analysis of the deposited data

How the results depend on the processing

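Over 600 values (6 members in 5 comparisons under 20 alternatives), 576 kept their direction and side of the threshold, 9 lost a call, 4 gained one and 11 changed sign. Members called with dTAG in serum went from 4 to 1, CCN2, with spike-in library sizes and no spike-in factor, 2 choices changed together, and ranged from 1 to 4 with 1 library left out, where the lowest was without DMSO-S30 replicate 3. CCN2 with serum kept its call throughout (log2 -0.86 to -0.74 with 1 library left out), as did AMOTL2 without serum and the serum rises of CCN1, CCN2, LATS2 and AMOTL2. With no filter 5 members were called for serum in DMSO, ANKRD1 being added. Sign changes fell on values that were not called. AMOTL1 was at -0.0091 for serum in DMSO without the spike-in factor and at 0.0085 for dTAG without serum with spike-in library sizes and no factor. With 1 library left out, the ranges were -0.0083 to 0.073 and -0.053 to 0.023 for these, -0.094 to 0.41 and -0.36 to 0.0205 for AJUBA, and -0.18 to 0.16 for the CCN2 interaction. AJUBA with serum in dTAG-treated cells was called by the likelihood ratio test (adjusted p = 0.022) and without DMSO-S30 replicate 3 (0.0429) or dTAG-S30 replicate 2 (0.0288). The cause was not tested.

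Replicate numbers did not pair the libraries: same-numbered deviations correlated at -0.153 to 0.139, over 0.1 in 1 of 18 pairs, and 5 of 12 libraries correlated best with their own number. A replicate block left 4 members called with dTAG in serum and added AJUBA for serum in dTAG-treated cells (adjusted p = 0.0411), with 167 genes called in all for dTAG with serum.

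Over all genes, spike-in library sizes with no factor called 1766 instead of 3439 for serum in DMSO, 1646 instead of 3203 in dTAG-treated cells, 76 instead of 171 for dTAG without serum, 66 instead of 161 with serum and 3 instead of 5 for the interaction. For the last 3, no filter gave 275, 406 and 29, the likelihood ratio test 287, 266 and 10, DESeq2 257, 298 and 22, and leaving out 1 library 110 to 295, 96 to 260 and 5 to 14. With 2 factors the interaction had 9. Depth limits ANKRD1, AJUBA and resting CCN2, and the overlap with another gene also limits AJUBA.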
